A study of Mus musculus with 12 samples.

Results

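The expression of 10 secreted signalling genes was followed in mouse mammary tissue. They were the chemokines Cxcl1, Cxcl2, Cxcl5, Cxcl12, Cxcl14, Ccl2, Ccl7 and Ccl20 and the colony-stimulating factors Csf1 and Csf3, chosen by name as inflammatory chemokines and colony-stimulating factors. All 10 had a row in each table, out of 23301 gene names shared by all 12 samples. RNA-seq had been made from 4 conditions with 3 replicates each, in 2 experiments, on female mice aged 12 weeks. Normal was untreated abdominal and inguinal mammary gland of wild-type FVB mice, with the glands of 3 mice pooled for each replicate. Tumor was untreated thoracic mammary tumor of MMTV-PyVT mice, 1 mouse per replicate. DMSO and C646 were mammary tumors of MMTV-PyVT mice that had been injected with the solvent DMSO or with C646, a small molecule inhibitor of the histone acetyltransferase p300. The labels give 1 mg/kg for both treatments, and the largest tumor of each mouse was taken. MMTV-PyVT mice carry the polyoma virus middle T oncogene under the mouse mammary tumor virus promoter, which is active in mammary epithelium. The position of the gland, the pooling of mice and the transgene all differed between Normal and Tumor and cannot be told apart.

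Chemokines are small secreted proteins that direct the movement of leukocytes through receptors on the cell surface. Cxcl1, Cxcl2 and Cxcl5 attract neutrophils through Cxcr2, Cxcl12 holds lymphocytes and blood precursor cells in tissues through Cxcr4, Ccl2 and Ccl7 draw monocytes through Ccr2, and Ccl20 draws lymphocytes and dendritic cells through Ccr6. Csf1 is the growth factor of macrophages and acts on Csf1r, and Csf3 is the growth factor of neutrophils and acts on Csf3r. In the mammary gland, Csf1 and the macrophages that depend on it are known for their part in duct growth and in tumor spread.

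The values were FPKM as deposited by the authors, a level per unit of transcript length scaled to library size. Their total still differed between samples, from 526855 in C646 replicate 3 to 783719 in Tumor replicate 1. Levels can therefore be compared between samples only approximately. Read numbers cannot be had from these values, and depth is therefore unknown. Each table held FPKM of at least 1 in between 12138 and 14296 rows. An exact 0 in these tables need not mean absence, because the housekeeping gene Gapdh was listed at 0 in 3 of the 6 normal and tumor samples and at no more than 0.194 FPKM in the others. A gene at 0 is therefore described as listed at 0, and groups with such a value are given sample by sample. The replicates were separate pools or mice. In each experiment limma was fitted to log2(FPKM + 2^-5) over its 6 samples, leaving out genes that did not reach 1 FPKM in 3 or more of them. Fold changes are on that scale throughout, p-values are adjusted over all genes tested, and a gene was called when the adjusted p was under 0.05. The exact permutation test of 3 samples against 3 cannot go below 0.1.

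Tumors and normal gland were compared first, to see how these genes differ in the transformed tissue. Cxcl1 and Csf3 were higher in Tumor, and Cxcl12, Cxcl14, Ccl2 and Csf1 were lower. The fall of Cxcl12, from 109 ± 10.1 FPKM to 9.96 ± 2.97 FPKM (SD, n = 3), was the largest fall. Of the 10 genes, 7 passed the filter on low values, and 2 of these were called higher and 4 lower. Of the higher ones, Csf3 passed the filter through its tumor values alone, so that a difference was built into its being tested. Of all 13031 genes tested, 28.8% were called higher and 31.7% lower, so that most genes tested differed, and a count of this size is not particular to these genes. Cxcl2, Cxcl5 and Ccl20 did not reach the filter and were not tested in this fit. Bulk RNA does not separate fewer cells of a type from less RNA per cell, and this holds for each difference below.

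**Figure D1:**
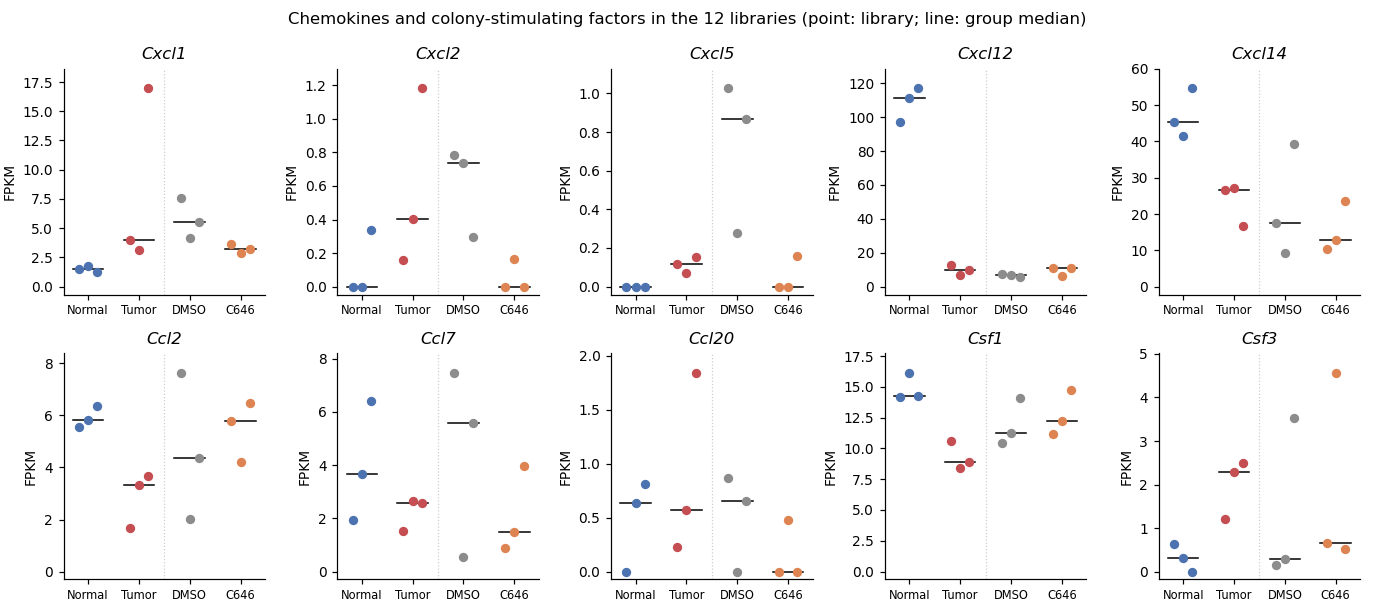
FPKM of each of the 10 genes in the 12 samples, on a linear axis that differs between genes, with 1 point per sample and a line at the group median. Cxcl12 lies between 97.4 and 117 FPKM in Normal and between 5.73 and 12.9 FPKM in the 9 tumors, while Cxcl1 is highest in 1 untreated tumor at 16.9 FPKM. DMSO and C646 come from tables with other rows than Normal and Tumor.

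The ligands of Cxcr2 among the 10 genes came first by role, since the rise of Cxcl1 was among the calls. Cxcl1 stood at 1.49, 1.77 and 1.28 FPKM in Normal and at 3.97, 3.09 and 16.9 FPKM in Tumor. Every tumor lay above every normal sample, and tumor replicate 3 lay far above the other two. On the log2 scale the fold change was 1.96 ± 0.60 (SE), a 3.89-fold rise with a 95% interval of 1.47 to 10.3 and an adjusted p of 0.0244 (limma). The call was lost when any 1 normal sample was left out, with adjusted p between 0.0523 and 0.0779, and was kept without any 1 tumor. Without tumor replicate 3 the log2 fold change was 1.21.

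Cxcl2, a close relative of Cxcl1, was listed at 0 in normal replicates 1 and 2 and at 0.337 FPKM in replicate 3, and it stood at 0.159, 0.405 and 1.18 FPKM in Tumor. The groups overlapped, and the exact permutation p was 0.2. Cxcl5 was listed at 0 in all 3 normal samples and stood at 0.115, 0.0683 and 0.153 FPKM in Tumor. The groups did not overlap (exact permutation p = 0.1). The tumor values were low, and after scaling by the relative depth of the libraries, read from the steps of FPKM values under 0.1, they came to 1.02, 1 and 2.07 times the lowest of them. With no filter on low values Cxcl5 was called, with an adjusted p of 0.00688 (limma), which rests on the pseudocount because its normal values were listed at 0. When groups are compared this way over the 18720 gene names above 0 in a sample, 25.8% lay higher in Tumor with no overlap and 31.1% lower.

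The 3 genes lie in 1 cluster on chromosome 5. On GRCm38, the build of mm10, Cxcl5 spans chr5:90759360-90761624, Cxcl1 spans chr5:90891241-90893115 and Cxcl2 spans chr5:90903871-90905938, all on the plus strand. The 10755 bp between Cxcl1 and Cxcl2 compare with 129616 bp between Cxcl5 and Cxcl1. The 200 bases before the RefSeq transcript start (GRCm38.p6) are shown for Cxcl1 and Cxcl2, both of which reached their highest level in untreated tumor 3, with the match to the NF-kappaB consensus in capitals. The Cxcl1 stretch is chr5:90891045-90891244 and the Cxcl2 stretch is chr5:90903699-90903898, both on the plus strand.
Cxcl1: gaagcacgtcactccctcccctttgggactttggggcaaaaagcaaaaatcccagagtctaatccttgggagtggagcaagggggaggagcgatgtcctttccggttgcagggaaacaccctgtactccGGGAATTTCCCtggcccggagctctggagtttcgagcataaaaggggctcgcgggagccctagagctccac
Cxcl2: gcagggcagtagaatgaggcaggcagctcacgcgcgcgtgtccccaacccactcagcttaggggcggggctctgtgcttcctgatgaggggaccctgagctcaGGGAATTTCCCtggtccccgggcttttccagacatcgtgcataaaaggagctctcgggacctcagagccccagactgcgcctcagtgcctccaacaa
Both held the same 11 letters, 71 to 61 bases before the start in Cxcl1 and 97 to 87 bases before it in Cxcl2.

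NF-kappaB is the transcription factor that many inflammatory signals switch on, and its consensus was searched on both strands from 250 bases before to 50 after the start. A promoter window was matched for 6 of the 10 genes, and 4 of these 6 held the consensus (Cxcl1, Cxcl2, Ccl20 and Csf1), beside 4.51% of all 32851 windows. In Ccl20 the match lay 80 to 71 bases before the start and in Csf1 154 to 145 bases before it. The TATA box spelled TATAAA (13.6% of all windows), the AP-1 site TGANTCA (7.81%) and the C/EBP site TTGCNNAA (10.8%) were in 0 of the 6. More spellings of the NF-kappaB site were tried, and these 4 motifs were settled after matches had been seen. A match is a description of the letters and says nothing about binding.

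Csf3, which drives the making of neutrophils, was called higher in Tumor. It stood at 0.630 and 0.315 FPKM and was listed at 0 in the 3 normal samples, against 1.21, 2.28 and 2.50 FPKM in the 3 tumors. The groups did not overlap. The log2 fold change was 3.33 ± 1.08 (SE, limma), with an adjusted p of 0.0305, but its size rests on the sample listed at 0 and on the pseudocount. It was 2.12 with a pseudocount of 2^-2 and 1.19 with a pseudocount of 1. Csf3 passed the filter through its 3 tumor values alone, so that a difference was built into its being tested. It left the filter without any 1 tumor, and its adjusted p was 0.0511 without normal replicate 2. Csf3r, the receptor of Csf3, was under the filter, at 0.760, 0.945 and 1.36 FPKM in Normal and 0.455, 0.666 and 0.667 FPKM in Tumor. The receptor was thus lower in every tumor than in every normal sample (exact permutation p = 0.1).

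Cxcr2, the receptor on neutrophils for Cxcl1, Cxcl2 and Cxcl5, was called lower. It stood at 2.21, 1.57 and 2.08 FPKM in Normal, was listed at 0 in the first tumor and stood at 0.239 and 0.225 FPKM in the others. Its adjusted p was 0.00576 (limma), and it passed the filter through its normal values alone. The markers of neutrophils did not all go one way. Of the 11 markers, 4 were tested, with S100a8 called higher, Cxcr2 called lower and 2 not called. The summed level of the list was 11.04 to 22.5 FPKM in Normal and 83.3 to 293 FPKM in Tumor, most of it S100a8, a calcium-binding protein that epithelium can also make, at 76.4 to 275 FPKM. Ly6g, a defining neutrophil gene, was listed at 0 in all 3 normal samples and in 2 of the tumors, and at 0.106 FPKM in the second tumor. The sum was highest in tumor replicate 2 and Cxcl1 in tumor replicate 3. The part of neutrophils in the rise of Cxcl1 and Csf3 was not tested.

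The chemokines that stromal and epithelial cells make at rest were the most abundant of the 10 genes in Normal. Cxcl12 came first at 97.4, 111 and 117 FPKM, then Cxcl14 at 45.3, 41.5 and 54.6 FPKM, and then Csf1 at 14.2, 16.1 and 14.3 FPKM. These ranges did not overlap each other. Ccl2 followed at 5.54, 5.81 and 6.36 FPKM and overlapped with Ccl7 at 1.94, 3.68 and 6.39 FPKM. Cxcl12 made up 58.2% to 61.5% of the summed FPKM of the 10 genes in Normal and 12.7% to 21.8% in Tumor. The sum itself was 167 to 201 FPKM in Normal and 54.9 to 64.5 FPKM in Tumor. In Tumor, Cxcl14 held the largest share in replicates 1 and 2 (45.1% and 49.4%), and in replicate 3 Cxcl1 (26.3%) and Cxcl14 (25.9%) held about as much as each other.

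**Figure D2:**
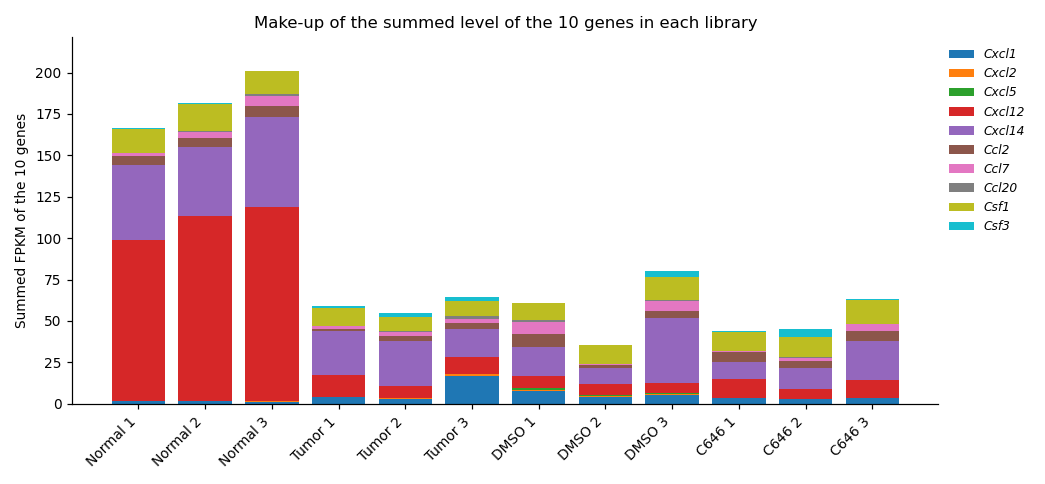
Summed FPKM of the 10 genes in each sample, stacked by gene. The normal bars reach 167 to 201 FPKM and consist mostly of Cxcl12 and Cxcl14, whereas the 9 tumor bars lie between 35.7 and 80.1 FPKM. DMSO and C646 come from tables with other rows than Normal and Tumor.

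Cxcl12 stood at 12.9, 6.94 and 10.1 FPKM in Tumor, all far below Normal. The log2 fold change was -3.48 ± 0.23 (SE), 11.2-fold lower, with an adjusted p of 3.7e-05 (limma), and it stayed between -3.69 and -3.25 whichever sample was left out. Cxcl12 spans chr6:117168535-117181367 on the plus strand of GRCm38. Its upstream stretch, chr6:117168335-117168534, is shown for contrast with those of Cxcl1 and Cxcl2. It held none of the 4 motifs and therefore has no capitals.
Cxcl12: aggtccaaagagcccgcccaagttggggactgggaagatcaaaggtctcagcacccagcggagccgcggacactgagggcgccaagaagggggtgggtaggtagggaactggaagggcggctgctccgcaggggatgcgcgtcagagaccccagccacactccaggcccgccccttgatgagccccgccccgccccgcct

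Both receptors of Cxcl12 were also lower. Cxcr4, which signals to the cell interior, stood at 34.6, 43.2 and 29.3 FPKM in Normal and 26.7, 10.7 and 12.6 FPKM in Tumor. The groups did not overlap, though the first tumor lay close to the lowest normal sample, and the log2 fold change was -1.20 ± 0.34 (SE, limma, adjusted p = 0.0188). Ackr3, a receptor that takes up Cxcl12 and removes it, stood at 18.4, 33.6 and 24.8 FPKM in Normal and 5.30, 4.39 and 4.47 FPKM in Tumor. Its log2 fold change was -2.39 ± 0.23 (SE, limma, adjusted p = 0.000155). Fibroblasts, fat cells and endothelium are known makers or users of Cxcl12, and their markers were lower in the same tumors. For fibroblasts 7 of 8 tested markers were called lower and 0 higher, with sums of 1835 to 1972 FPKM in Normal and 252 to 559 FPKM in Tumor. For adipocytes 8 of 8 were called lower, with sums of 17135 to 21927 FPKM against 102 to 1276 FPKM. For endothelium 5 of 5 were called lower, with sums of 115 to 144 FPKM against 17.2 to 25.6 FPKM. Their part in the fall of Cxcl12 was not tested. No defining marker of these 3 lists was listed at 0 in all samples of a group.

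Cxcl14, a chemokine that epithelium and stroma make and whose receptor is not settled, was called lower as well. It stood at 26.7, 27.1 and 16.7 FPKM in Tumor, against at least 41.5 FPKM in Normal. Cxcl14 was 2.04-fold lower, a log2 fold change of -1.03 ± 0.22 (SE), with an adjusted p of 0.00537 (limma). The markers of epithelium went the other way in these tumors, with 5 of 7 called higher, 0 lower and sums of 455 to 955 FPKM in Normal and 2426 to 3412 FPKM in Tumor. The level of Cxcl14 was thus lower in samples whose epithelial markers were higher and whose fibroblast markers were lower. The part of either cell type in the fall of Cxcl14 was not tested.

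The monocyte chemokines Ccl2 and Ccl7 lie side by side on chromosome 11, 8258 bp apart. Ccl2 stood at 1.68, 3.32 and 3.68 FPKM in Tumor, below each normal sample. Its log2 fold change was -1.10 ± 0.31 (SE, limma, adjusted p = 0.0169). Under quantile normalization the value was -0.70 with an adjusted p of 0.0724, and without normal replicate 3 the adjusted p was 0.0619, so that the call depended on both. Ccl7 stood at 1.54, 2.66 and 2.56 FPKM in Tumor, within the range of Normal. Its log2 fold change was -0.70 (95% interval -1.75 to 0.35, limma, adjusted p = 0.211), and a fall as large as that of Ccl2 lay inside the interval. Without normal replicate 1, the lowest of its group, the adjusted p was 0.0439.

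Ccr2, the receptor of Ccl2 and Ccl7 on monocytes, stood at 5.47, 5.998 and 5.35 FPKM in Normal and 0.511, 0.500 and 0.336 FPKM in Tumor. The receptor was 11.9-fold lower (log2 fold change -3.57 ± 0.26 SE, limma, adjusted p = 5.08e-05). Ccr2 passed the filter through its normal values alone, so that a difference was built into its being tested. Ccr1, which binds Ccl7 and other chemokines, stood at 1.63, 1.83 and 1.04 FPKM in Normal and 1.20, 1.90 and 1.97 FPKM in Tumor. It was the only one of 7 tested receptors without a call, with a log2 fold change of 0.17 (95% interval -0.60 to 0.95). Ccr3, a receptor of eosinophils, was under the filter, with a highest value of 0.293 FPKM in Normal and 0.0347 FPKM in Tumor.

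Csf1, the macrophage growth factor, changed least among the genes called. It stood at 10.6, 8.44 and 8.88 FPKM in Tumor. All 3 lay below the lowest normal sample. Csf1 was 1.6-fold lower, a log2 fold change of -0.68 ± 0.15 (SE) with an adjusted p of 0.00585 (limma), and the call held whichever sample was left out. Csf1r, its receptor, stood at 47.4, 52.7 and 46.8 FPKM in Normal and 11.3, 9.05 and 9.82 FPKM in Tumor. The receptor was 4.87-fold lower (log2 fold change -2.28 ± 0.14 SE, limma, adjusted p = 2.79e-05). The markers of macrophages were divided. Of 10 tested, 5 were called lower, among them Csf1r, the mannose receptor Mrc1 (log2 fold change -2.97) and the scavenger receptor Cd163 (-3.47, tested through its normal values alone), and 2 higher, among them the lipopolysaccharide co-receptor Cd14 (1.96). The summed level of the list was 451 to 600 FPKM in Normal and 379 to 657 FPKM in Tumor, and the groups overlapped. No marker of that list was listed at 0 in all samples of a group.

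Ccl20 was listed at 0 in normal replicate 1 and stood at 0.633 and 0.814 FPKM in the others, against 0.231, 0.567 and 1.84 FPKM in Tumor. The groups overlapped and the exact permutation p was 0.7. Its receptor Ccr6 showed the largest fall of the receptors, from 6.58, 6.29 and 6.08 FPKM to 0.169, 0.137 and 0.220 FPKM (log2 fold change -4.96 ± 0.28 SE, limma, adjusted p = 2.53e-05). Ccr6 is carried by B cells and some T cells, and the lymphocyte markers moved with it. All 7 tested lymphocyte markers, which passed the filter through Normal alone, were called lower, with sums of 280 to 362 FPKM in Normal and 0.750 to 1.31 FPKM in Tumor, and the B cell gene Ms4a1 was listed at 0 in every tumor. The part of lymphocytes in the receptor values was not tested. Like Cxcr2, Ccr2 and Ccr6 passed the filter through their normal values alone, so that a difference was built into their being tested.

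**Figure D3:**
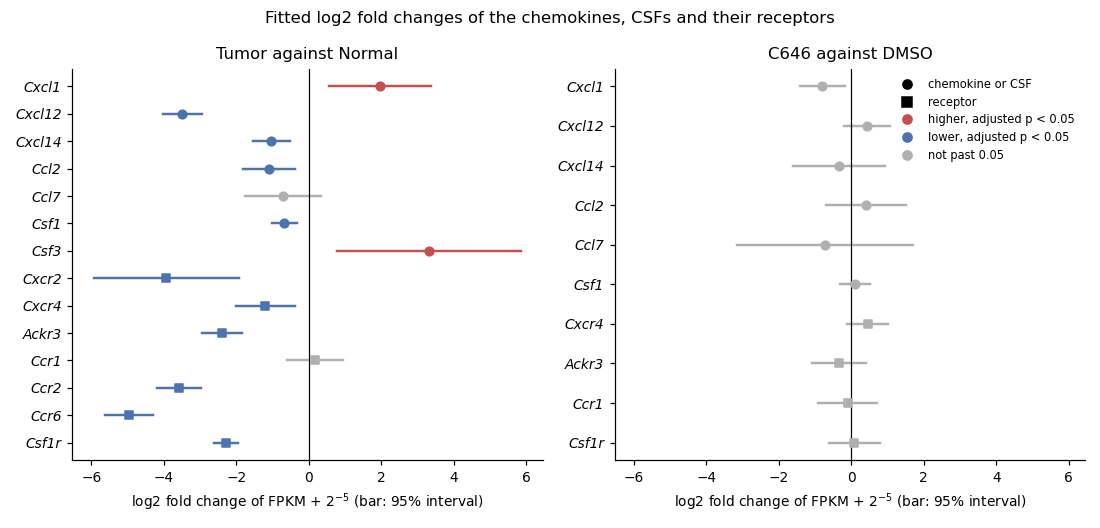
Log2 fold change (x axis, on FPKM + 2^-5) with its 95% interval for each tested chemokine or colony-stimulating factor (circles) and receptor (squares), Tumor against Normal on the left and C646 against DMSO on the right. On the left Cxcl1 and Csf3 are the 2 genes called higher and 6 of the 7 receptors are called lower, and on the right no gene is called. Csf3 passed the filter through Tumor alone, and Cxcr2, Ccr2 and Ccr6 through Normal alone.

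The other genes of the pathway were given from fixed lists. Of 19 other chemokines tested, 1 was called higher and 10 lower, but 4 of the 10 (Cxcl9, Cxcl15, Ccl22 and Ccl24) passed the filter through their normal values alone, so that their difference was built in. The one that rose was Cx3cl1, a membrane-bound chemokine, at 9.31, 6.61 and 8.55 FPKM in Normal and 35.7, 18.0 and 28.5 FPKM in Tumor (log2 fold change 1.70, adjusted p = 0.00132). The largest falls were those of Ccl22, which draws regulatory T cells (-7.19, adjusted p = 1.23e-05, passed through Normal alone), and of Ccl5, which T cells make (-6.63, adjusted p = 0.000114). The atypical receptors, which bind chemokines without the usual signal, were called lower in 3 of 3 cases, with Ackr2 at -4.72 and Ackr1 at -2.83, and 2 of them (Ackr2 and Ackr4) passed the filter through Normal alone. Of 6 other growth factors and cytokines tested, 0 were called higher and 4 lower, led by the dendritic cell growth factor Flt3l (-2.92) and by Tnf (-2.32), the classical inducer of NF-kappaB.

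NF-kappaB pathway genes and targets were mostly lower in Tumor, with 9 of 13 tested called lower and 2 higher. The largest falls were those of Nfkbie, an inhibitor of NF-kappaB (-3.22, adjusted p = 0.000332), and Tnfaip3, a target that ends the signal (-2.73, adjusted p = 4.63e-05). Those that rose were Nfkbib, another inhibitor (0.52, adjusted p = 0.0171), and Cebpb, a transcription factor of inflammation and of mammary epithelium. Cebpb stood at 101, 147 and 113 FPKM in Normal and 740, 571 and 576 FPKM in Tumor (log2 fold change 2.39, adjusted p = 8.02e-05). The median log2 fold change was -1.22 over the 13 tested genes of this list, none of which passed the filter through 1 group alone, beside -0.02 over all genes tested. Skeletal muscle markers were also higher in these tumors, 5 of 5 called, with sums of 1539 to 4364 FPKM against 10.6 to 81.6 FPKM in Normal, and what these samples held besides tumor was not tested.

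**Figure D4:**
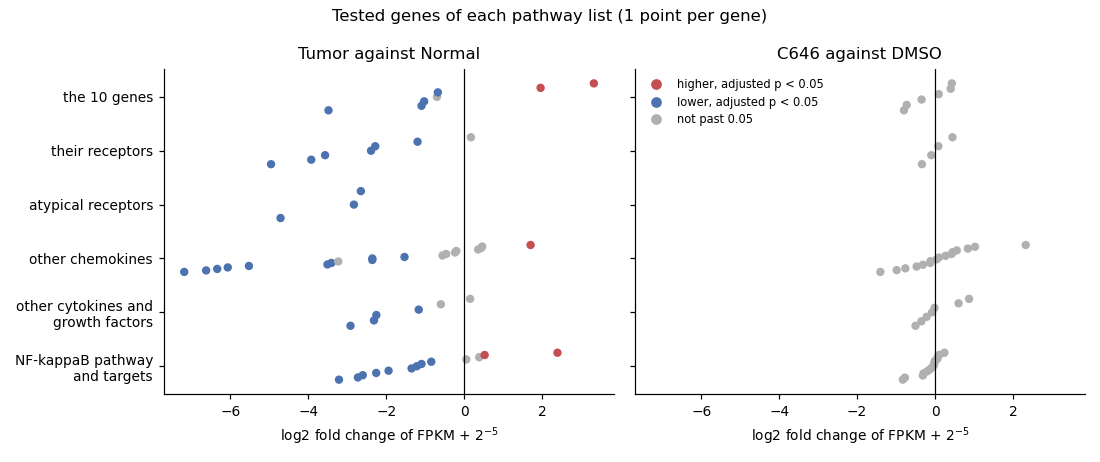
Log2 fold change of each tested gene (1 point per gene, coloured by call) in the 6 pathway lists, Tumor against Normal on the left and C646 against DMSO on the right. On the left most points of the receptor, other chemokine and NF-kappaB lists lie below 0, and on the right 0 genes are called in any list.

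The second comparison asked how the same genes differed in tumors of mice given C646. No gene of the 10 was called in either direction. Of 12083 genes tested with limma, 0 (0%) were called higher and 0 (0%) lower, and 384 had an unadjusted p under 0.05. Of the 10 genes, 6 passed the filter. Among the 10 genes, the Cxcr2 ligands Cxcl1, Cxcl2 and Cxcl5 were each lower in all 3 C646 tumors than in any DMSO tumor. The values of the other 7 genes overlapped between the groups. Over the 17873 gene names above 0 in a sample, 3.87% lay higher and 3.93% lower in C646 with no overlap. The exact permutation p of each of the 3 ligands was 0.1, the smallest possible, and 2 of the 3 were under the filter. Chemokines outside the 10 genes did not all go this way. Cxcl3, Ppbp and Cxcl15, all under the filter, overlapped between the groups. The means of Cxcl3 and Ppbp were lower in C646, and that of Cxcl15 was higher (0.0267 FPKM in DMSO and 0.295 FPKM in C646).

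Cxcl1 stood at 7.62, 4.16 and 5.56 FPKM in DMSO and at 3.63, 2.84 and 3.23 FPKM in C646. The gap between the groups was small beside the spread in DMSO. The log2 fold change was -0.80 ± 0.26 (SE), with a 95% interval of -1.42 to -0.17, an unadjusted p of 0.0193 and an adjusted p of 0.99 (limma). It lay between -1.01 and -0.58 whichever sample was left out. Under each setting tried the sign was the same and the gene was not called.

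Cxcl2 stood at 0.786, 0.738 and 0.298 FPKM in DMSO, was listed at 0 in C646 replicates 1 and 3, and stood at 0.162 FPKM in replicate 2. Cxcl5 stood at 1.03, 0.276 and 0.866 FPKM in DMSO, was listed at 0 in C646 replicates 1 and 2, and stood at 0.158 FPKM in replicate 3. Both genes were at the lower end of what these libraries could measure. The depth of each library relative to DMSO replicate 1 was read from the steps of FPKM values under 0.1 and came to 1.08 and 1.29 in the other DMSO tumors and 0.996, 1.22 and 0.924 in the C646 tumors. After this scaling, Cxcl2 in DMSO came to 3.98, 4.01 and 1.95 times its one value above 0 in C646, and Cxcl5 to 7.03, 2.03 and 7.67 times. With no filter on low values the adjusted p of both was 0.925 (limma).

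The neutrophil markers were mostly too low to test. Of the 11 markers, 10 were in these tables and 1, S100a8, was tested, at 79.4, 67.8 and 654 FPKM in DMSO and 92.1, 78.1 and 71.9 FPKM in C646. The summed level of the list was 68.4 to 671 FPKM in DMSO and 73.8 to 93.0 FPKM in C646, so that the groups overlapped. Markers listed at 0 throughout 1 group went both ways. Mmp8, a neutrophil collagenase, and Camp were listed at 0 in all 3 C646 tumors, and Ngp and Mpo in all 3 DMSO tumors. In DMSO, Mmp8 stood at 0.686, 0.142 and 0.0563 FPKM (exact permutation p = 0.1). Retnlg and Elane were listed at 0 in every sample of both groups. Cxcr2 stood at 0.238 FPKM or less in all 6 tumors, and Csf3r at 0.678, 0.489 and 0.521 FPKM in DMSO and 0.844, 0.514 and 0.886 FPKM in C646. The part of neutrophils in the ligand values was not tested.

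Csf3 varied more between tumors of 1 group than between the groups. It stood at 0.161, 0.293 and 3.52 FPKM in DMSO and at 0.667, 4.56 and 0.515 FPKM in C646. A single tumor in each group was high, 12-fold over the next in DMSO and 6.83-fold in C646. The DMSO tumor with the high Csf3 was also the one with the high S100a8, whereas the C646 tumor with the high Csf3 was not. Skeletal muscle marker sums differed widely as well, at 0.774, 1.69 and 333.9 FPKM in DMSO and 337.5, 1.97 and 308.6 FPKM in C646. The part of sample make-up in the Csf3 values was not tested. With 2 values of at least 1 FPKM, Csf3 was under the filter (exact permutation p = 0.5).

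Cxcl12 stood at 7.39, 7.07 and 5.73 FPKM in DMSO and at 11.2, 6.09 and 10.8 FPKM in C646. The log2 fold change was 0.43 (95% interval -0.20 to 1.06, limma, adjusted p = 0.99), so that a small fall and a 2.09-fold rise were both inside the interval. Cxcl14 stood at 17.7, 9.34 and 39.4 FPKM in DMSO and at 10.5, 12.8 and 23.6 FPKM in C646. Its DMSO values spread 4.22-fold, and the log2 fold change of -0.34 (95% interval -1.62 to 0.93) turned to 0.19 without DMSO replicate 3. Cxcr4 (log2 fold change 0.45, 95% interval -0.11 to 1.01) and Ackr3 (-0.33, 95% interval -1.08 to 0.41) were not called either. Fibroblast marker sums were 217 to 473 FPKM in DMSO and 355 to 747 FPKM in C646, which overlapped. Adipocyte marker sums were 16.5 to 60.1 FPKM in DMSO and 69.6 to 310 FPKM in C646, which did not, although 0 of 6 tested adipocyte markers were called.

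Ccl2 stood at 7.62, 2.03 and 4.38 FPKM in DMSO and at 5.78, 4.22 and 6.47 FPKM in C646. Ccl7 stood at 7.45, 0.560 and 5.59 FPKM in DMSO and at 0.884, 1.47 and 3.95 FPKM in C646. Both neighbours were lowest of their group in DMSO replicate 2 and highest in DMSO replicate 1. The spread of Ccl7 in DMSO was 13.3-fold, and its log2 fold change of -0.73 had a 95% interval of -3.15 to 1.70 (limma, adjusted p = 0.99). For Ccl2 the log2 fold change was 0.40 (95% interval -0.70 to 1.51), and it turned to -0.10 without DMSO replicate 2. Ccr2 stood at 0.249, 0.427 and 0.363 FPKM in DMSO and at 0.429, 0.995 and 1.37 FPKM in C646. It was the only receptor whose groups did not overlap, by a narrow margin, and it was under the filter (exact permutation p = 0.1).

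Csf1 differed little between the groups. It stood at 10.4, 11.2 and 14.1 FPKM in DMSO and at 11.2, 12.2 and 14.7 FPKM in C646. The log2 fold change was 0.10 (95% interval -0.32 to 0.51, limma, adjusted p = 0.99), which leaves room for a change of up to 1.43-fold upward. Csf1r stood at 21.0, 33.9 and 20.7 FPKM in DMSO and at 21.5, 21.5 and 38.1 FPKM in C646 (log2 fold change 0.09, 95% interval -0.61 to 0.78). One tumor in each group was high in Csf1r. Macrophage marker sums were 364 to 537 FPKM in DMSO and 446 to 586 FPKM in C646, and 0 of 10 tested markers were called.

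Ccl20 stood at 0.867 and 0.656 FPKM in DMSO replicates 1 and 3 and was listed at 0 in replicate 2, and it was listed at 0 in C646 replicates 1 and 3 and stood at 0.476 FPKM in replicate 2. The groups overlapped (exact permutation p = 0.4). Ccr6 stood at 0.631 FPKM or less in all 6 tumors, Ccr3 at 0.0565 FPKM or less, and Ccr1 at 1.19 to 2.25 FPKM. Ccr3 was listed at 0 in all 3 DMSO tumors. Of the other lists, 0 of 16 chemokines, 0 of 7 growth factors and cytokines and 0 of 14 NF-kappaB genes tested were called. The 3 atypical receptors were under the filter.

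**Figure D5:**
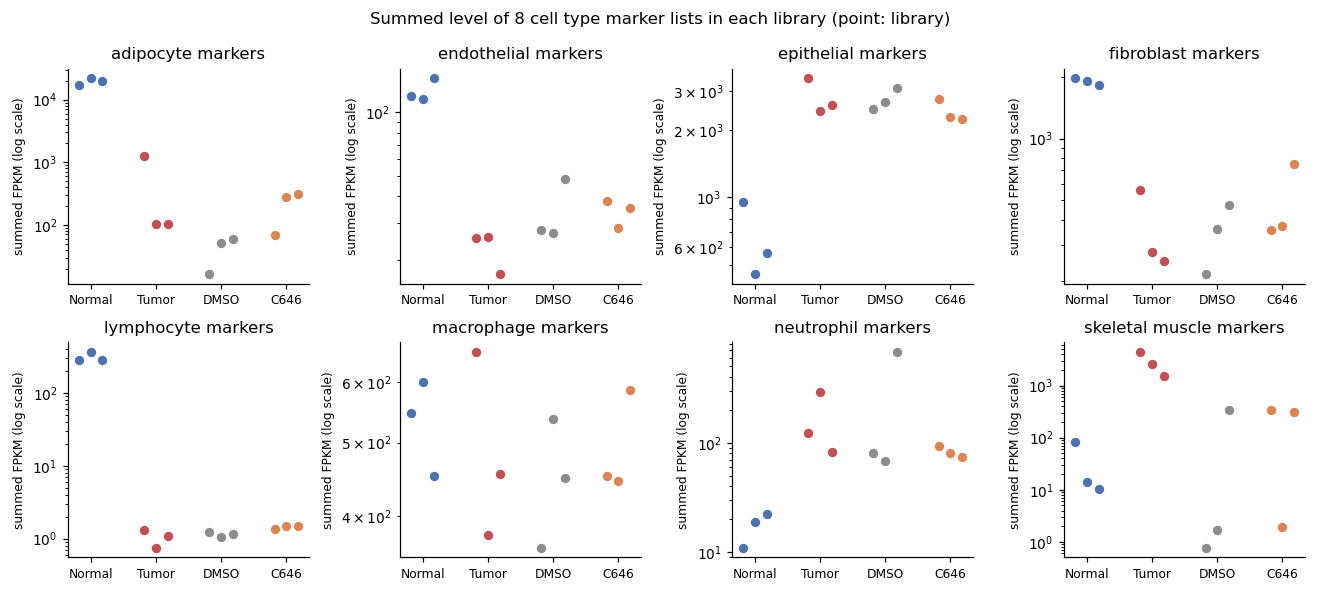
Summed FPKM of 8 lists of cell type markers in each sample (1 point per sample, log axis). Adipocyte, endothelial, fibroblast and lymphocyte sums are lower in every tumor than in every normal sample, epithelial sums are higher, macrophage sums overlap, and the neutrophil sum reaches 671 FPKM in 1 DMSO tumor. Skeletal muscle sums spread from 0.774 to 333.9 FPKM in DMSO and from 1.97 to 337.5 FPKM in C646. DMSO and C646 come from tables with other rows than Normal and Tumor.

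The 9 tumors were then set side by side without a test, because the tables of the 2 experiments held different rows. Those of Normal and Tumor held 26220 rows each, 1837 without a name, and those of DMSO and C646 held 24304, all named. Gapdh stood at no more than 0.194 FPKM in the first experiment and at 2.11 to 19.9 FPKM in the second. Injected tumors set beside the normal range are therefore a description only. Csf1 spread least, from 8.44 to 14.7 FPKM with a coefficient of variation of 18.7%, and Cxcl12 next, from 5.73 to 12.9 FPKM (29.7%). Cxcl1 ranged from 2.84 to 16.9 FPKM (79.1%) and Csf3 from 0.161 to 4.56 FPKM (89.5%). Cxcl1 was above the normal range, and Cxcl12 and Cxcl14 below it, in each of the 9 tumors. The share of all gene names that did so over the 9 was not counted. For the 3 untreated tumors alone it was 25.8% above and 31.1% below. Ccl2 was below the normal range in the 3 untreated tumors but within or above it in 3 of the 6 injected ones. Csf1 was below the normal range in all 3 untreated tumors and reached it in 1 of the injected ones. Untreated tumor 3 held the highest level of Cxcl1, Cxcl2 and Ccl20 among the 9, and DMSO tumor 1 the next highest of each.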

How the data were processed

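RNA-seq of 12 mouse mammary samples in 4 conditions was analysed, with groups and replicate numbers taken from the labels. The authors made unstranded poly-A libraries, removed adaptors with Cutadapt, aligned to mm10 by TopHat2 2.1.1, estimated FPKM by Cufflinks 2.2.1, and deposited 1 FPKM table per sample. The gene annotation is not given in the sources used here. Without strand, reads of overlapping genes cannot be told apart.

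Rows without a name were dropped and repeated names summed. limma 3.58.1 in R 4.3.3 (lmFit, eBayes with a variance trend) was run on log2(FPKM + 2^-5) for each experiment, on genes that reached 1 FPKM in 3 or more of 6 samples, with Benjamini-Hochberg adjustment over all genes tested and a threshold of 0.05. The fit was tested on simulated data. Exact permutation tests were two-sided. p-values rest on the spread between these samples only, and in limma the variance of each gene was also drawn toward that of the other genes. The fit took a single variance for pools of 3 mice and for single mice alike. Other pseudocounts, filters, scalings, a replicate block and leaving out each sample were tried. Relative depth was read only where at least 15% of ratios fell at the peak, a limit lowered after seeing the ratios.

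The genes and lists were chosen with earlier results of these data known. All 10 genes and their 9 receptors are named, and from each other pathway list at most 2 genes higher and 2 lower with the largest change among those called without overlap. Marker lists are given as counts, sums and defining markers. The value of 1 marker is not reported here. Of the fibroblast list 8 of 9 markers were found. Gene positions came from GENCODE on GRCm38 and promoters from RefSeq on GRCm38.p6. Python 3.11.15 was used with pandas 2.3.3, numpy 2.4.6, matplotlib 3.10.9 and scipy 1.17.1.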

Additional observations from a re-analysis of the deposited data

How the results depend on the processing

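In the comparison of Tumor with Normal, 4 genes were called lower under every setting that kept all samples except quantile normalization, which left 3, since the log2 fold change of Ccl2 was then -0.70 with an adjusted p of 0.0724. Quantile normalization moved the median of all genes from -0.02 to 0.10 on the log2 scale. The number called higher was 2 in each setting that kept all samples except that with no filter on low values, where Cxcl5 made it 3. It lay between 0 and 2 when 1 sample was left out, with 0 without normal replicate 2, and the number called lower then lay between 3 and 5. Leaving out 1 sample leaves 2 in its group, and with the filter applied again Csf3 was not tested without any 1 tumor. An alternative chosen after seeing this kept the genes of the 6-sample filter, and the log2 fold change of Csf3 was then 3.20 without tumor replicate 2 (adjusted p = 0.0736) and 3.14 without tumor replicate 3 (0.0824), where the call was lost, and it was kept without each of the other 4 samples, with adjusted p from 0.0149 to 0.0456 and values from 2.02 to 4.22. In the comparison of C646 with DMSO, 0 of the 10 genes were called under each setting tried. When 1 sample was left out, the log2 fold change of Ccl2 ranged from -0.10 to 0.85, that of Cxcl14 from -0.84 to 0.19 and that of Csf1 from -0.014 to 0.222, and each changed sign. Over all genes, 0 were called there in each setting except without DMSO replicate 2, where 12 were called lower (11 with the genes of the 6-sample filter). Samples of the same replicate number did not deviate together in Tumor and Normal, with correlations of -0.098 to 0.010, so the numbers were not taken to pair the samples. With the replicate block the counts stayed at 2 higher and 4 lower of the 10 genes in Tumor, and over all genes 3439 were called higher against 3758 without the block. In DMSO and C646 those correlations were 0.070 to 0.175, and 0 genes were called with the block. Depth is unknown, and it limits what can be said of Cxcl2, Cxcl5 and Ccl20.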

Other observations

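Some genes outside the named set lay without overlap between DMSO and C646, and a few are given here after their values were seen. Those given sample by sample were all lower in C646. Xcl1, Tek, Adipoq, Plin1, Plin4, Fabp4 and Lep went the other way, higher in C646 without overlap. None of these genes was called in either direction. Tek and Lep were under the filter, and Plin1 passed it through C646 alone. Cxcl10, a chemokine of the interferon response that acts on Cxcr3, stood at 2.04, 0.189 and 1.56 FPKM in DMSO, was listed at 0 in C646 replicates 1 and 3, and stood at 0.167 FPKM in replicate 2. Cxcl11, a second ligand of Cxcr3, stood at 0.508, 0.120 and 0.189 FPKM in DMSO and was listed at 0 in the same 2 C646 tumors, with 0.105 FPKM in the other. Both were under the filter. Tnfaip3 stood at 5.38, 3.40 and 3.96 FPKM in DMSO and at 2.53, 2.04 and 2.46 FPKM in C646, with a log2 fold change of -0.83 ± 0.25 (SE) and an adjusted p of 0.99 (limma). Cebpb stood at 637, 682 and 675 FPKM in DMSO and at 556, 547 and 522 FPKM in C646, with a log2 fold change of -0.29 ± 0.13 (SE) and the same adjusted p. The exact permutation p of each was 0.1, the smallest that 3 samples against 3 can give. Lif, a cytokine related to Il6, stood at 2.84, 2.02 and 2.97 FPKM in DMSO and at 1.61, 1.83 and 2.02 FPKM in C646. Its groups were nearly tied, since the lowest DMSO and the highest C646 value both round to 2.02 FPKM. The log2 fold change was -0.50 ± 0.28 (SE), with a 95% interval of -1.16 to 0.16 and an adjusted p of 0.99 (limma). Of the 25 other chemokines, Cxcl10 and Cxcl11 were lower without overlap and Xcl1 was higher, beside 3.93% lower and 3.87% higher over all gene names above 0 in a sample. The mean of Xcl1 was 0.803 FPKM in DMSO and 1.805 FPKM in C646 (log2 fold change 2.33, limma, adjusted p = 0.99). The ratio of these means was 2.25, and 5 of the 6 samples reached 1 FPKM. The size of the log2 fold change thus rests on a DMSO sample below 1 FPKM and on the pseudocount.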
